A study of Mus musculus with 95 samples.

Results

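Expression of the prostaglandin genes was followed through the nerves and kidneys of non-diabetic (db/+) and diabetic (db/db) mice, some of which received pioglitazone. The set held 10 of the 25407 gene symbols in the deposited files. These were the cyclooxygenases Ptgs1 and Ptgs2, the terminal synthases Ptges, Ptges2, Ptgds and Ptgis, the degrading enzyme Hpgd, and the prostaglandin E2 receptors Ptger1, Ptger3 and Ptger4. The members were chosen by name, with earlier results of these same libraries known. Ptges was already known to differ in the glomeruli of diabetic mice, and which other FPKM values led to the choice is not recorded. The levels and differences of the members are therefore given as a description, with no p-value, and support nothing on their own.

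RNA-Seq libraries came from the sciatic nerve (SCN), dorsal root ganglia (DRG), isolated kidney glomeruli and kidney cortex of male mice on the C57BLKS strain, all taken at 16 weeks of age. The db/db mice are homozygous for a mutation of the leptin receptor and become obese and diabetic, and the db/+ mice, which carry a single mutant copy, served as the non-diabetic control. The db/+ PIO and db/db PIO groups received pioglitazone, a PPARG agonist, at 15 mg/kg over 11 weeks. The 95 libraries fell into 16 groups of 6, except that DRG db/db had 5. The obesity and the diabetes of db/db mice come together, and their effects cannot be told apart in this design.

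Prostaglandins are short-lived lipid signals made from arachidonic acid that phospholipases release from membranes. The cyclooxygenases turn it into prostaglandin H2, which the terminal synthases convert to prostaglandin E2, prostaglandin D2 or prostacyclin, and the E2 receptors then act on neighbouring cells until 15-hydroxyprostaglandin dehydrogenase (Hpgd) inactivates the ligand. In the kidney these lipids are known for their effects on glomerular blood flow, renin release and salt and water transport in the collecting duct, and in sensory nerves for lowering the threshold for pain.

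The deposited value is the FPKM, which is the fragments assigned to a gene scaled by transcript length and by the size of the library, so levels of different genes can be set side by side per length. An exact 0 was read as missing, because genes used by every cell were also listed at 0, for example Gapdh in 34 and Actb in 74 of the 95 libraries. Of the 950 entries of the 10 genes, 608 were above 0 and 342, or 36%, were listed at 0. Of the 10 members, the filter on low values kept 8 in SCN and 8 in glomeruli, 7 in cortex and 4 in DRG, and a gene could pass through a single group in which it was high. Ptges2 in DRG and Ptger3 in SCN and cortex had no value in any library. The labelled tissues could be checked only in part. Podxl, a podocyte gene, lay between 1431 and 3085 FPKM in glomeruli where it had a value, and Mbp, a myelin gene, between 7889 and 13038 FPKM in SCN. The podocyte genes Nphs1, Wt1 and Ptpro, the endothelial Pecam1, and 5 of the 6 sensory neuron genes in DRG were listed at 0 throughout.

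The promoters of the E2 synthase Ptges, the dehydrogenase Hpgd and the inducible cyclooxygenase Ptgs2 are shown first because these were the 3 members called higher in db/db than in db/+ glomeruli. They are the 250 bases before the annotated start in RefSeq (GRCm38.p6), 5′ to 3′ on the strand of the gene, with GC boxes (GGGCGG on either strand) in capitals. That build differs from the mm9 build of the expression files. The table held 8 of the 10 members, without Ptgis and Ptger1.
Ptges: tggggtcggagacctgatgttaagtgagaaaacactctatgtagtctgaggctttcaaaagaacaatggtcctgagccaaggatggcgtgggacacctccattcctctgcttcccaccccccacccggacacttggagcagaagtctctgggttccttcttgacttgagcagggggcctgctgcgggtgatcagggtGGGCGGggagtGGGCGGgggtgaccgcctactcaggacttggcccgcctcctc
Hpgd: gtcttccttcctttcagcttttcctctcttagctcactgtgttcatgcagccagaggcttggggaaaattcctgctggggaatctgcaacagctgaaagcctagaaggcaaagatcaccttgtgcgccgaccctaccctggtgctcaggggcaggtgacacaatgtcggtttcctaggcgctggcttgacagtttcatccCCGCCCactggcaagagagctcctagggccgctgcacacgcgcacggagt
Ptgs2: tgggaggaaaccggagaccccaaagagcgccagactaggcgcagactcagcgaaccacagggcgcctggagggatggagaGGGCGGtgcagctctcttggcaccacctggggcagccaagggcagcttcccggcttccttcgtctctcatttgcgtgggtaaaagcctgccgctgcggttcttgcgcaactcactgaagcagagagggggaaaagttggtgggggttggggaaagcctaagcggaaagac
The Ptges window (chr2:30903298-30903547, minus strand) held 2 GC boxes, and the Hpgd window (chr8:56294302-56294551, plus strand) and the Ptgs2 window (chr1:150099781-150100030, plus strand) held 1 each. Of the 8 members with a window, 5 held a GC box, against 32.7% of all 32851 windows of that length. A CCAAT box (CCAAT) was found in 1 member, Ptger4, against 33.8% of all windows. None of the 8 windows held the letters TATAAA, the nuclear receptor half-site AGGTCA or TGACGT on either strand, which 12.4%, 14.0% and 6.47% of all windows held. The motifs were searched on both strands, and among the 3 windows printed no matches overlapped.

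The levels in untreated db/+ mice differed by tissue and by role in the pathway. Ptgs1, the constitutive cyclooxygenase (ENSMUSG00000047250.6, chr2:36085946-36107792 in mm9), had medians of 17.75 FPKM in glomeruli, 5.94 in cortex, 2.17 in SCN and 0.345 in DRG. The ranges of neighbouring tissues in that order did not overlap, although only 2 glomerular libraries had a value. Ptgs2, the inducible cyclooxygenase (ENSMUSG00000032487.7, chr1:151947254-151955140), was low everywhere. Its glomerular libraries held 0.52 to 1.33 FPKM, above the range in SCN, cortex and DRG, where the medians were 0.105, 0.09 and 0.04 and the ranges of neighbours overlapped.

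Among the terminal synthases, Ptges, the inducible microsomal E2 synthase (ENSMUSG00000050737.10, chr2:30744991-30785383), had its highest db/+ median in SCN, 8.47 FPKM, and lower medians in cortex (5.57), DRG (2.665) and glomeruli (0.67). SCN and cortex overlapped, as did DRG and glomeruli. Ptges2, a second microsomal E2 synthase (ENSMUSG00000026820.3, chr2:32251416-32258259), had db/+ values only in SCN, at 6.54, 6.97, 9.04 and 9.86 FPKM. Ptgds, the D2 synthase (ENSMUSG00000015090.7, chr2:25322229-25325566), was at 27.2 and 32.1 FPKM in the 2 DRG db/+ libraries with a value and was listed at 0 in every other DRG library. Its medians in db/+ cortex, glomeruli and SCN were 5.95, 1.95 and 1.09, and glomeruli and SCN overlapped. Ptgis, the prostacyclin synthase (ENSMUSG00000017969.7, chr2:167017305-167066104), had a db/+ median of 7.895 FPKM in SCN, 1.88 in cortex and 0.8 in DRG, with a single glomerular value of 7.48. Hpgd (ENSMUSG00000031613.8, chr8:58773349-58799843) had medians of 10.2 in cortex, 7.77 in SCN, 1.705 in DRG and 0.795 in glomeruli. Cortex overlapped SCN, and DRG overlapped glomeruli.

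The E2 receptors Ptger4 and Ptger1 were highest in glomeruli. Ptger4, which raises cyclic AMP (ENSMUSG00000039942.9, chr15:5156661-5194187), had a db/+ median of 38.1 FPKM in glomeruli, with a range of 28.4 to 43.7. The median was 4.35 in DRG, 1.415 in SCN and 0.97 in cortex, and only the SCN and cortex ranges overlapped. Ptger1, the receptor that raises cell calcium (ENSMUSG00000019464.5, chr8:86190732-86196652), was at 50.6, 52.3 and 55.5 FPKM in glomeruli and had medians of 20.2 in DRG, 9.565 in SCN and 7.78 in cortex, where SCN and cortex overlapped. Ptger4 shares 15.3% of its exonic bases with a pseudogene on the other strand. The library kit did not mark strand, so reads of genes that overlap on opposite strands cannot be told apart. Ptger3, which lowers cyclic AMP (ENSMUSG00000040016.9, chr3:157229856-157307722), had 11 values in all. Its 4 DRG values ran from 7.56 to 10.15 FPKM and its 7 glomerular values from 0.15 to 0.78.

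**Figure D1:**
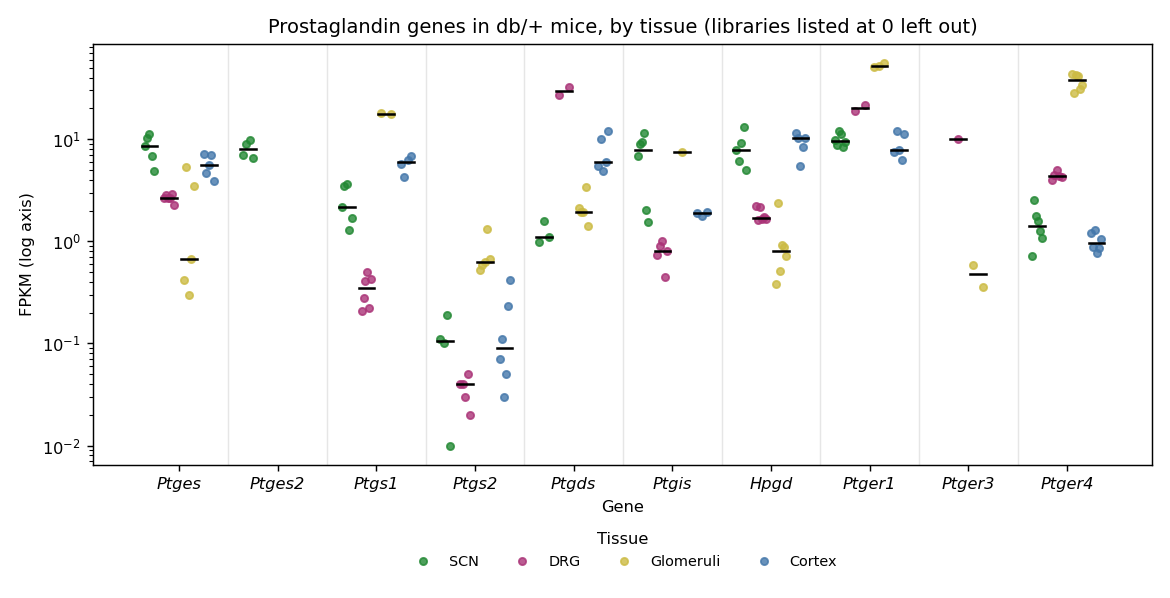
FPKM of the 10 prostaglandin genes in untreated db/+ mice, on a log axis, with a point for each library above 0, a bar at the median and a colour for each tissue. Ptger4 and Ptger1 stand highest in glomeruli, with medians of 38.1 and 52.25 FPKM, whereas Ptges and Hpgd are lowest there, with medians of 0.67 and 0.795.

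The first comparison asked what diabetes did to these genes in the glomeruli, and the second what pioglitazone did to them in diabetic mice. Ptges was low or middling in db/+ glomeruli, at 0.3, 0.42, 0.67, 3.45 and 5.33 FPKM, with 1 library listed at 0. In db/db glomeruli it ran from 7.23 through a median of 11.2 to 16.65 FPKM. Every db/db library lay above every db/+ library. With pioglitazone the db/db PIO libraries fell to between 0.14 and 2.72 FPKM, with a median of 0.75, again without overlap with db/db. The log2(FPKM + 1) difference was 2.30 ± 0.44 (SE) for db/db minus db/+ and -2.74 ± 0.42 for db/db PIO minus db/db. In bulk tissue, fewer cells of a type and less RNA per cell cannot be told apart.

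Hpgd was also called in both glomerular comparisons, at a lower level. It ran from 0.38 to 2.39 FPKM in db/+ glomeruli (median 0.795), from 1.81 to 7.12 in db/db (median 2.48) and from 0.08 to 1.03 in db/db PIO (median 0.475). The db/+ and db/db ranges overlapped through db/+ replicate 2, the library with 2.39 FPKM, and the db/db and db/db PIO ranges did not overlap. The log2 differences were 1.06 ± 0.25 and -1.40 ± 0.25. Without db/db replicate 1, the library with 7.12 FPKM, they were 0.84 and -1.19. Ptgs2 was at 0.52, 0.59, 0.62, 0.67 and 1.33 FPKM in db/+ glomeruli and at 0.59 to 2.24 in db/db (median 1.39), a log2 difference of 0.50 ± 0.16 with overlapping ranges. The db/db PIO libraries held 0.74 to 1.82 (median 0.925), and the difference from db/db was -0.25 ± 0.15.

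The D2 synthase Ptgds was called for pioglitazone but not for diabetes. It was at 1.41, 1.92, 1.95, 2.13 and 3.42 FPKM in db/+ and 1.67 to 4.48 in db/db glomeruli (median 2.74), with a log2 difference of 0.27 ± 0.18. In db/db PIO it lay between 1.17 and 1.92 (median 1.505), which was -0.58 ± 0.17 from db/db with overlapping ranges. The receptor Ptger4 was called higher with pioglitazone. It ran from 27.5 to 41.2 FPKM in db/db glomeruli (median 32.0) and was at 41.2, 41.7, 46.5 and 53.6 in db/db PIO, a difference of 0.47 ± 0.12, with the lowest treated library just under the highest untreated one. The other 2 db/db PIO libraries listed Ptger4 at 0, and when zeros were kept as values the difference turned to -1.37. Against db/+ (28.4 to 43.7, median 38.1) the db/db libraries differed by -0.16 ± 0.11. Ptger1 stayed within overlapping ranges, with differences of 0.14 ± 0.14 and -0.14 ± 0.12.

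By the limma fit over all genes, 3 of the 6 members tested for diabetes in glomeruli were called (Ptges, Hpgd and Ptgs2, all higher), where 25.4% of all 4210 genes tested were called in either direction. For pioglitazone in db/db glomeruli 4 of 6 were called (Ptges, Hpgd and Ptgds lower, Ptger4 higher), where 23.1% of 4158 genes were called. Ptgs2 reached 1 FPKM in 9 glomerular libraries and passed the filter on low values only through db/db. Its call as higher in db/db was therefore partly set by the filter. The median log2 difference of the members tested was 0.39 for diabetes and -0.42 for pioglitazone, beside 0.04 and -0.04 for all genes tested. Since the members were chosen with such results known, nothing is read from these shares or medians. The calls of Ptgs2 for diabetes and Ptgds for pioglitazone were the least steady. Ptgs2 lost its call without db/+ replicate 1 or 3 or db/db replicate 1 or 2, and Ptgds lost it without db/db replicate 1, where the difference was -0.47. The remaining 4 members in glomeruli were not tested for these contrasts because too few libraries had values. Ptgs1 had values of 17.65, 17.85, 19.3 and 21.9 FPKM in 4 libraries, none of them db/db. Ptgis had 5 values between 3.55 and 13.45, Ptges2 8 values between 6.26 and 13.3, and Ptger3 the low values given above.

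**Figure D2:**
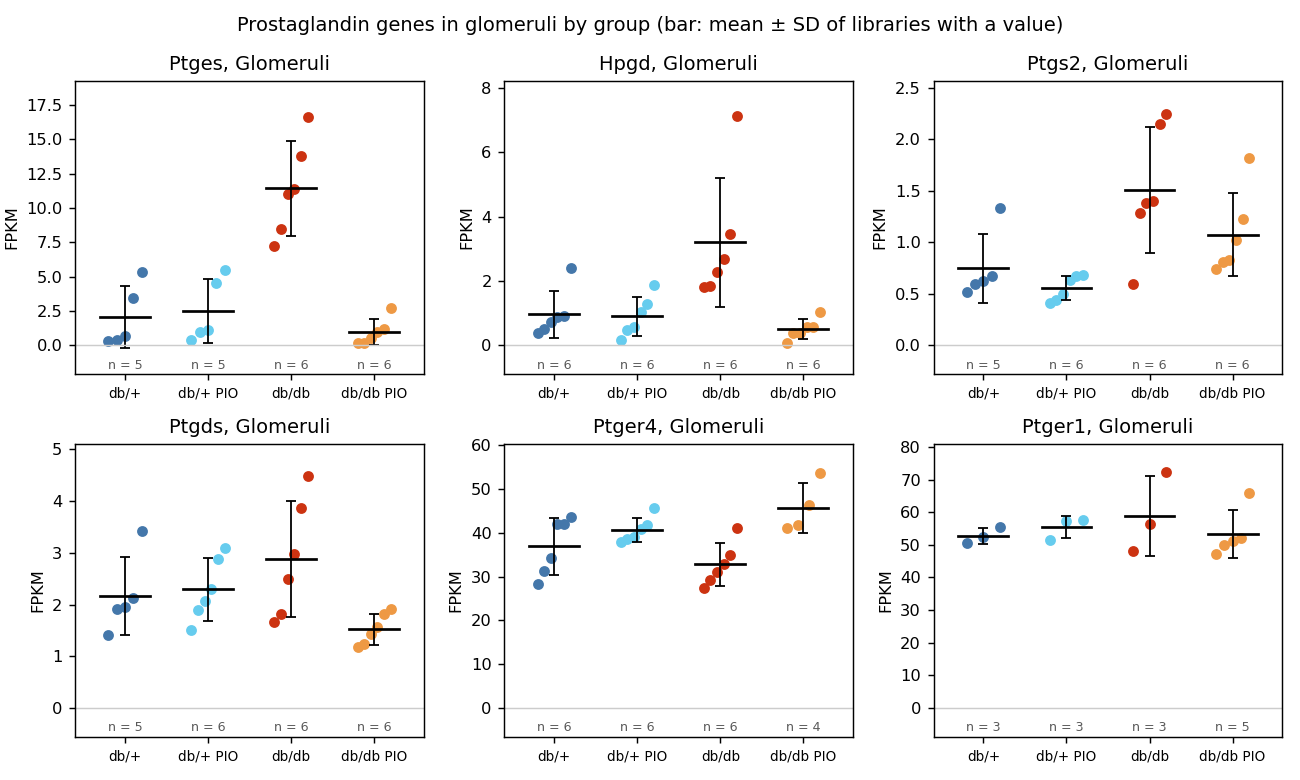
FPKM of 6 prostaglandin genes in each glomerular library by group, with points for libraries above 0, bars for the mean ± SD and n for the number of libraries with a value. Ptges (7.23 to 16.65) and Hpgd (1.81 to 7.12) are highest in db/db and fall to 0.14 to 2.72 and 0.08 to 1.03 in db/db PIO, whereas the ranges of Ptger1 overlap in all 4 groups.

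Some of the listed tubule markers moved with Ptges and Hpgd in the glomerular libraries, and most of those listed could not be tested. Of the 12 collecting duct genes listed, 4 had enough values to be tested. All 4 were higher in db/db than in db/+ glomeruli, with a median log2 difference of 2.33, and lower in db/db PIO than in db/db, with a median of -2.45. Over all genes tested in glomeruli, 25.4% were called for diabetes and 23.1% for pioglitazone in db/db. Krt19 passed the filter on low values only through db/db, at 2.46 to 7.44 FPKM there and at most 0.49 in any other glomerular library. That all 4 were higher in db/db was therefore partly set by the filter. The summed level of Krt18 and Krt19, keratins of simple epithelia and the only listed genes with a value in every library of these groups, was 0.55 to 7.93 FPKM in db/+, 15.7 to 28.5 in db/db, and 0.34 to 5.63 with pioglitazone. The collecting duct genes Avpr2, Fxyd4 and Aqp2 had 0, 2 and 5 values in the 24 libraries, and Aqp2 and Aqp3 were listed at 0 in all 6 db/db libraries. The distal gene S100g, the 1 tested of its list of 8, was also higher in db/db (log2 difference 3.56) and lower in db/db PIO (-4.16). None of the 3 proximal tubule genes tested was called in either contrast.

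Within the non-diabetic groups the same libraries were high in both. Ptges was 5.33 and 3.45 FPKM in db/+ replicates 2 and 5, where Krt18 was 7.49 and 5.61. In db/+ replicates 1, 3 and 4, Ptges was 0.42, 0.3 and 0.67 and Krt18 was 0.39, 0.3 and 0.73. In db/+ PIO, replicates 1 and 5 held 4.51 and 5.5 FPKM of Ptges and 6.96 and 7.01 of Krt18, above the other replicates with values of both. Over 22 glomerular libraries the correlation of Ptges with Krt18 on the log2 scale was 0.98, a description of libraries that share their groups. Of 1900 genes with enough shared values, Adh1 (0.98 over 18 libraries), Sgpp2 (0.98 over 19) and Krt18 had the highest correlation with Ptges. For Hpgd the highest of 2387 genes were Ptprf, Ap1m2 and Sh3gl2, each with r of 0.92. These 2 lists were drawn up after the values were seen. Immune and stromal genes moved too. C1qa and C1qb, complement genes of macrophages, and C1qc were lower in db/db PIO than in db/db, as 3 of 4 macrophage genes tested, and 1 of 3 was higher with diabetes. C1qa went from 13 to 50.3 FPKM in db/db to 0.56 to 4.36 in db/db PIO. The fibroblast genes Col1a1, Col3a1 and Dcn were higher in db/db and lower in db/db PIO, as 3 of 4 tested in both contrasts, and their summed level was 1.92 to 16.5 FPKM in db/+, 8.33 to 16.0 in db/db, then 1.14 to 3.44 in db/db PIO. The part of these other cells in the levels of the prostaglandin genes was not tested.

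**Figure D3:**
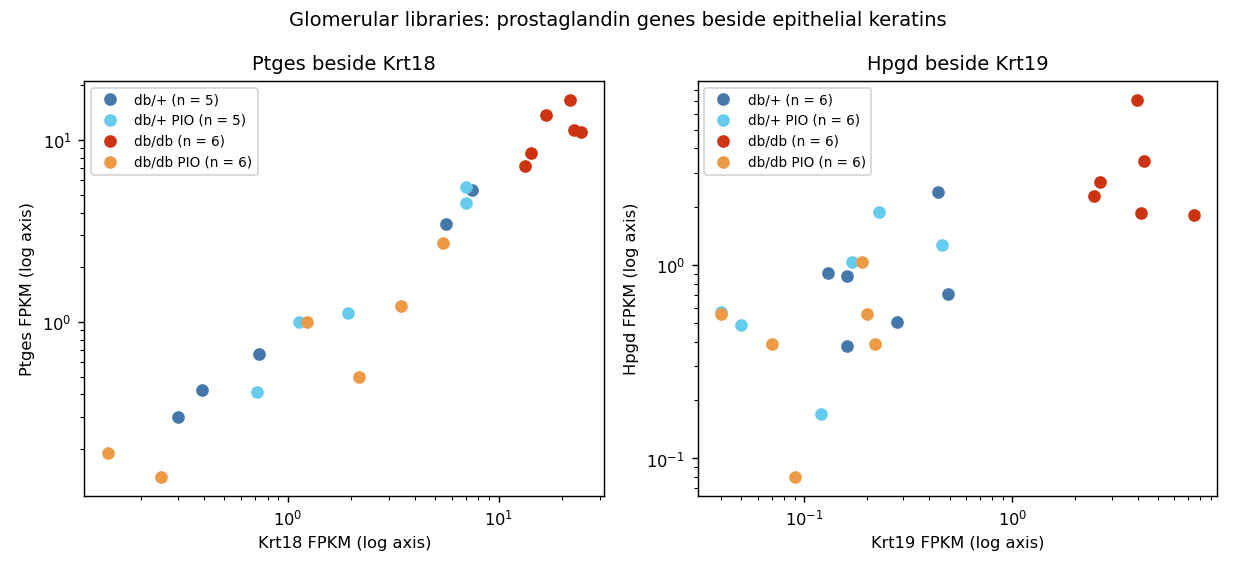
Ptges beside Krt18 (left) and Hpgd beside Krt19 (right) in the glomerular libraries, both axes FPKM on a log scale, with a point for each library that had both values and a colour for each group. Ptges spans 0.14 to 16.65 and Krt18 0.14 to 24.4 FPKM, and in both panels the 6 db/db libraries lie at the far right.

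In SCN, a mixed nerve of the leg, no member was called by the limma fit for diabetes or for pioglitazone in db/db. The authors, with their own test on aligned reads, listed Hpgd as higher in SCN in both contrasts and Ptges as lower with diabetes. That test cannot be repeated from FPKM. Ptges was at 4.86, 6.89, 8.47, 10.2 and 11.25 FPKM in db/+ and at 5.63, 5.92, 5.93 and 6.05 in db/db, a log2 difference of -0.39 ± 0.16 with overlapping ranges. The db/db PIO values were 5.72, 6.43, 6.47 and 7.04. The background was 14.9% of 4233 genes called for diabetes and 10.1% of 3940 for pioglitazone in db/db, and 7 members were tested in each. Hpgd had the widest range here. It was at 5.02, 6.07, 7.77, 9.18 and 13.2 FPKM in db/+, at 7.38, 11.7, 12.1 and 30.8 in db/db and at 15.6, 19.3, 28.3 and 31.9 in db/db PIO. The log2 differences were 0.71 ± 0.33 for diabetes and 0.72 ± 0.34 for pioglitazone in db/db. Single libraries decided several of these: without db/+ replicate 6, Ptges (-0.55) and Ptgis (-1.15) were called for diabetes. Without db/db replicate 4, Hpgd (1.09) and Ptger1 (0.47) were called for pioglitazone in db/db, and Ptger1 was also called without db/db PIO replicate 4 (0.43) or 6 (0.41). Hpgd values in db/+ PIO were 3.12, 4.53, 4.65, 5.81 and 6.55, all below every db/db PIO value. By its median, Hpgd was highest in db/db PIO in SCN and lowest in db/db PIO in glomeruli. The difference between tissues was not tested.

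In the comparison of db/+ PIO with db/db PIO, 3 of 7 members were called in SCN, all higher, where 33.8% of 4402 genes were called. Hpgd differed by 2.04 ± 0.33. Ptgs1 was at 1.36, 1.5, 1.55 and 2.36 FPKM in db/+ PIO and at 3.02, 3.23, 3.72 and 4.24 in db/db PIO, a difference of 0.76 ± 0.20. Ptger1 was at 7.94 to 10.95 (median 9.455) and 11.4 to 18.2 (median 13.4), a difference of 0.53 ± 0.12. None of these ranges overlapped, and the 3 calls ended once zeros were kept as values. Without pioglitazone Ptgs1 was 1.29, 1.7, 2.17, 3.49 and 3.64 FPKM in db/+ and 2.91 to 5.02 in db/db (median 3.06), a difference of 0.39 ± 0.17. Ptgis was at 1.54 to 11.6 FPKM in db/+ SCN (median 7.895) and at 1.72, 2.37 and 3.91 in db/db, with a difference of -0.87 ± 0.42. Ptgds stayed between 0.41 and 2.08 FPKM, Ptger4 between 0.72 and 2.53, and Ptges2 between 6.54 and 13.4 in its 10 libraries with a value. Ptgs2 reached at most 0.29 FPKM in SCN.

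Markers of other cells also differed between db/+ PIO and db/db PIO SCN. The macrophage genes C1qa, Mrc1 and Lyz2, the 3 tested of 9 listed, were all higher in db/db PIO, with a median log2 difference of 1.34. C1qa was 26.6 to 54.7 FPKM in db/+ PIO and 85.5 to 110.9 in the 3 db/db PIO libraries with a value, and Cd68 had no value in SCN. Mbp, the myelin gene of Schwann cells, was lower, with a difference of -0.26. Of 4 mast cell genes tested, Kit and Fcer1a were higher, and the summed level of Kit and Ms4a2 was 1.23 to 2.13 FPKM in db/+ PIO and 3.46 to 4.75 in db/db PIO. Between db/db and db/db PIO SCN, Fabp4, a fat cell gene and PPARG target, was at 2428 to 8591 and 7230 to 16830 FPKM (log2 difference 1.44, limma adjusted p = 0.00397). Fabp4 was the 1 tested of 7 fat cell genes listed, and the other 6 were listed at 0 in all libraries of both groups. The part of these cells in the levels of Hpgd, Ptgs1 and Ptger1 was not tested.

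In DRG, which hold the cell bodies of sensory neurons, 1 member was called for diabetes. Ptges was at 2.25 to 2.88 FPKM in db/+ (median 2.665) and at 3.12, 3.57, 3.64 and 3.98 in db/db, with 1 db/db library listed at 0. The ranges did not overlap and the log2 difference was 0.32 ± 0.07. The other 2 members tested for diabetes in DRG, Hpgd and Ptger4, were not called, where 4.13% of 3829 genes were called. The call ended without db/db replicate 4 (0.28), and when zeros were kept as values the difference turned to -0.12. The db/db PIO values were 2.92, 2.96, 3.12 and 3.62, a difference of -0.14 ± 0.08 from db/db. Hpgd and Ptger4 lay between 1.18 and 2.79 and between 3.5 and 5.62 FPKM over all DRG libraries with a value. The cyclooxygenases were low there, Ptgs1 at 0.16 to 0.56 FPKM and Ptgs2 at 0.01 to 0.07, and the prostacyclin synthase Ptgis lay between 0.39 and 1.34. Ptger1 had 8 values between 18.9 and 22.5 FPKM. No member of 3 tested was called for pioglitazone in db/db DRG, where limma called 0% of 3794 genes and 325 had an unadjusted p under 0.05. None was called for db/+ PIO with db/db PIO, where 8.64% of 4095 genes were called. Of 7 macrophage genes tested in DRG, 4 were higher in db/db than in db/+, with a median log2 difference of 0.39. The summed level of the 5 with a value in every library of both groups was 12.7 to 15.9 FPKM in db/+ and 16.4 to 23.1 in db/db, and their part in the level of Ptges was not tested.

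In cortex no member was called for diabetes or for pioglitazone in db/db, of 6 tested in each, where 10.3% of 3925 and 3.24% of 3890 genes were called. Ptges was at 3.88, 4.62, 5.57, 6.94 and 7.14 FPKM in db/+ and 5.13, 5.61, 7.07, 7.13 and 7.14 in db/db, a log2 difference of 0.18 ± 0.16. Hpgd was at 5.41, 8.42, 10.2, 10.2 and 11.5 in db/+ and 4.52 to 9.84 in db/db (median 7.72), a difference of -0.24 ± 0.22. The difference of Ptges between glomeruli and whole cortex was not tested. Over all cortex libraries with a value Ptger1 lay between 2.77 and 14.2 FPKM, Ptger4 between 0.66 and 1.34 and Ptgs2 between 0.01 and 0.42. Ptgis had 11 values between 1.32 and 2.68, and Ptges2 had 2, at 22.7 and 34.7. Between db/+ PIO and db/db PIO cortex, 2 of 7 members were called, where 19.7% of 3865 genes were called. Ptgs1 was at 3.13, 5.18, 5.71 and 5.76 FPKM in db/+ PIO and at 7.75, 8.75, 8.76, 8.86 and 8.88 in db/db PIO, a difference of 0.72 ± 0.20 with no overlap. Ptgds was at 6.93, 7.28 and 10.7 in db/+ PIO and at 1.98, 2.24, 3.05, 4.41 and 4.74 in db/db PIO, a difference of -1.15 ± 0.29 with no overlap. The Ptgs1 call ended without db/+ PIO replicate 3 (0.55), and Ptgds could not be tested without any 1 of its 3 db/+ PIO libraries. With each 0 entered as a value both calls ended and Ptgds turned to 0.11. The macrophage genes tested in this comparison, 5 of 9 listed, were all lower in db/db PIO, with a median log2 difference of -1.33. The summed level of the 3 listed genes with a value in every library was 19.3 to 50.0 FPKM in db/+ PIO and 6.08 to 16.6 in db/db PIO, and their part in these levels was not tested. In db/db without pioglitazone Ptgs1 was 4.37, 9.22, 9.54 and 9.55 FPKM, where the lowest value came from replicate 6, whose FPKM summed to 601310, the highest of the 95 libraries. Without that library Ptgs1 was called for diabetes in cortex, with a difference of 0.64.

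**Figure D4:**
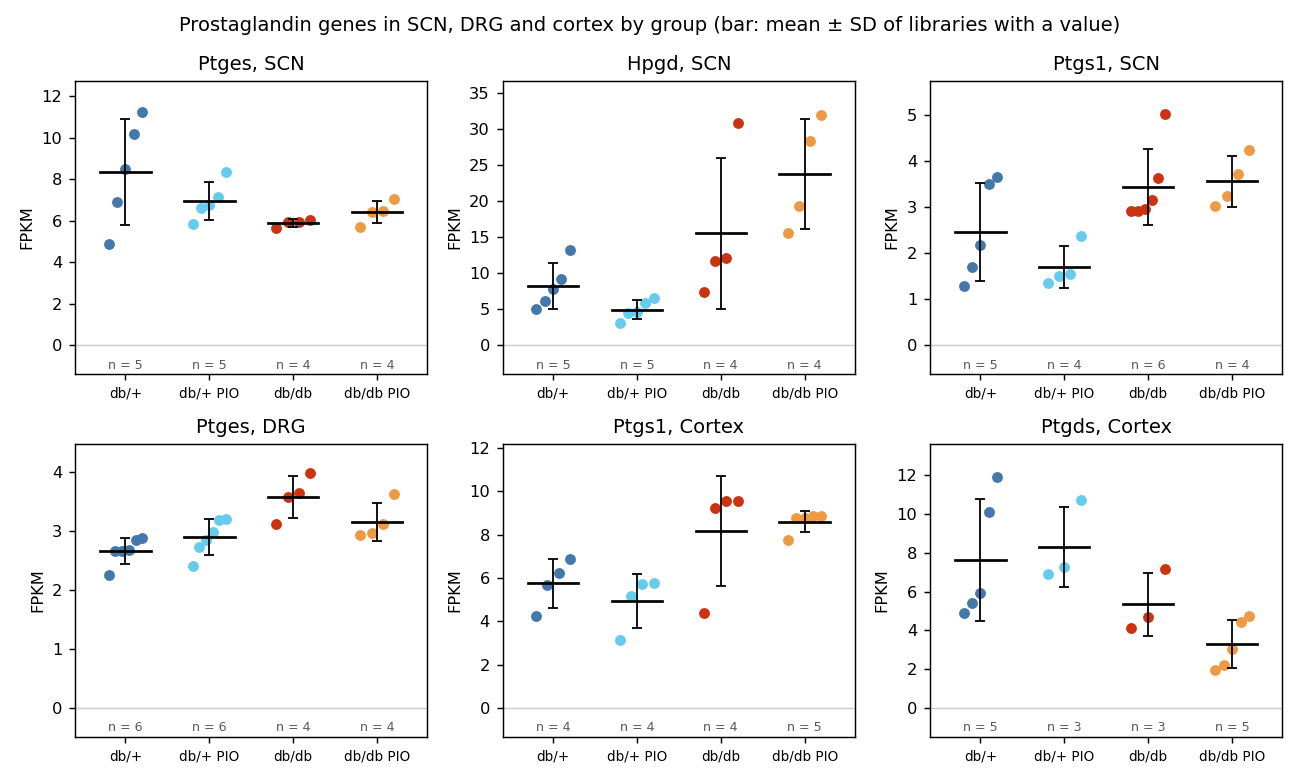
FPKM of prostaglandin genes in SCN, DRG and cortex by group, with points for libraries above 0, bars for the mean ± SD and n for the number of libraries with a value. Hpgd in SCN is highest in db/db PIO (15.6 to 31.9 FPKM), Ptges in DRG is higher in db/db (3.12 to 3.98) than in db/+ (2.25 to 2.88), and Ptgs1 and Ptgds in cortex do not overlap between db/+ PIO and db/db PIO.

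In non-diabetic mice pioglitazone gave no call among the members in any tissue. Of all genes, limma called 0.0778% of the 5142 tested in SCN and 0.025% of the 4004 tested in cortex, with 659 and 103 genes at an unadjusted p under 0.05. It called 0% of 4153 genes in DRG and 0% of 4419 in glomeruli, with 403 and 118 genes at that unadjusted level. In glomeruli Ptges was at 0.41, 1, 1.12, 4.51 and 5.5 FPKM in db/+ PIO, and the log2 difference from db/+ was 0.26 ± 0.46. Hpgd, Ptgs2 and Ptger4 differed by -0.04 ± 0.25, -0.15 ± 0.16 and 0.15 ± 0.11. Between db/+ PIO and db/db PIO glomeruli none of 7 members was called, where 8.41% of 4255 genes were called. Ptges differed by -0.70 ± 0.44 there. Ptgs2 was at 0.41 to 0.68 FPKM (median 0.565) in db/+ PIO and 0.74 to 1.82 (median 0.925) in db/db PIO, a difference of 0.40 ± 0.15 whose ranges did not overlap although it was not called.

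**Figure D5:**
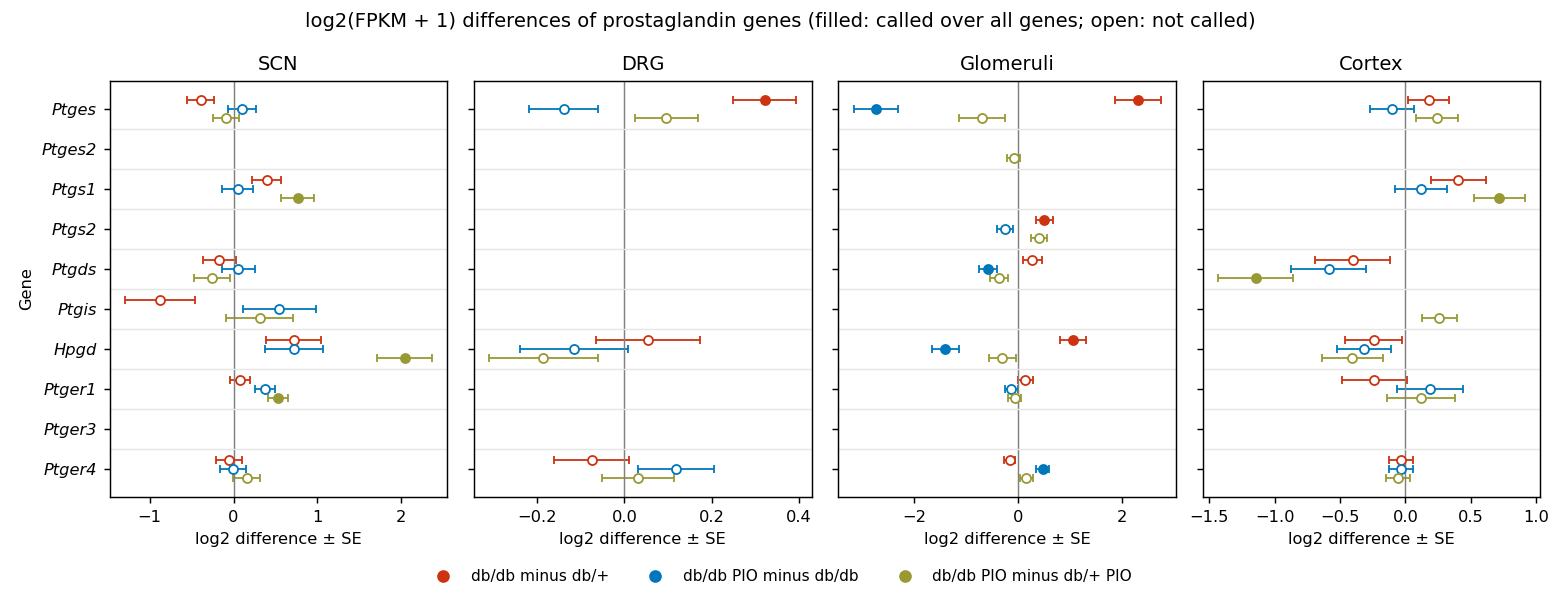
Differences in log2(FPKM + 1) with their SE for each prostaglandin gene and tissue, coloured by comparison, filled where limma called the gene over all genes tested and open where it did not, with a scale of its own for each tissue. Ptges in glomeruli has the widest swing, 2.30 with diabetes and -2.74 with pioglitazone, and genes with too few values have no point.

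The other genes of the pathway were taken from a list of phospholipases, further synthases, receptors and genes of transport and breakdown, of which 29 were in the files. The list was also drawn up with earlier results known, so the adjusted p-values given for its genes are a description and support nothing on their own. Few had enough values. In SCN 9 were tested for diabetes, of which 0 were higher and 2 lower, where 14.9% of all genes tested were called, so the count was near the background. Akr1b3, an aldose reductase that can form prostaglandin F2α, was at 252.65 to 292.3 FPKM in db/+ and 133.2 to 167.6 in db/db, in 4 libraries each (log2 difference -0.86 ± 0.14, limma adjusted p = 0.00144). Ptgfr, the F2α receptor, was at 1.59 to 3.02 in db/+ and 0.74 to 1.2 in db/db (-0.75 ± 0.15, adjusted p = 0.00201). For pioglitazone in db/db SCN, 1 of 7 tested was higher, where 10.1% of all genes were called. This was Pla2g12a, a secreted phospholipase, at 13.2 to 16.65 FPKM without the drug (4 libraries) and 19.5 to 23.1 with it (3 libraries) (0.53 ± 0.10, adjusted p = 0.00618), and it turned to -0.39 with each 0 entered as a value.

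In glomeruli 10 of the 29 were tested for diabetes, of which 2 were higher and 1 lower, a share near the 25.4% of all genes called. Ptger2, the E2 receptor that like Ptger4 raises cyclic AMP, was at 0.61 to 2.09 FPKM in db/+ and 0.23 to 0.72 in db/db (-0.76 ± 0.15, adjusted p = 0.0014). It was also lower in db/db PIO than in db/+ PIO (-0.74 ± 0.16, adjusted p = 0.00751). Pla2g12a was at 8.22 to 10.9 in db/+ and 12.05 to 14.2 in 3 db/db libraries (0.43 ± 0.11, adjusted p = 0.00869), which turned to -0.35 with each 0 entered as a value. Cbr3, a carbonyl reductase, was at 3.69 to 6.42 and 5.88 to 9.49 (0.41 ± 0.12, adjusted p = 0.0142). The Cbr3 call was kept in 7 of 12 alternatives, and ended with each 0 entered as a value, under median-of-ratios rescaling, under quantile normalization, with only the 2 groups in the fit and when a 1.5-fold difference was required. None of the other pathway genes was called for pioglitazone in db/db glomeruli, and none was called in DRG or cortex for diabetes or for pioglitazone in db/db. By their own test, the authors listed Ptger2 as raised by the drug in diabetic glomeruli and as higher in both SCN contrasts. Its glomerular median was 0.465 FPKM (db/db, 6 libraries) and 0.715 (db/db PIO, 4 libraries), with overlapping ranges. Ptger2 was too low to be tested here in SCN, with medians of 0.2 FPKM (db/+), 0.48 (db/db) and 1.06 (db/db PIO). Between db/+ PIO and db/db PIO, 3 of 7 tested were higher in SCN (Pla2g4a, Abcc4 and Ptgr1, differences of 0.75, 0.39 and 0.42) and 2 of 5 lower in DRG (Ptges3 and Akr1b3, -0.45 and -0.36). Over all genes 33.8% were called in SCN and 8.64% in DRG. In the same comparison 1 of 5 was lower in cortex (Akr1b7, -0.59), and in glomeruli Ptgr1 was higher (0.45) and Ptger2 lower, of 10 tested. Over all genes 19.7% were called in cortex and 8.41% in glomeruli, and the counts in SCN and cortex were near these shares. Cytosolic phospholipase A2 (Pla2g4a) frees arachidonic acid, Abcc4 exports prostaglandins and Ptgr1 reduces them. The Ptgr1 call in glomeruli ended in 9 of the 24 fits that left out a library, and the Ptges3 call in 5 of 23. Of the 12 alternatives, the Ptgr1 call in glomeruli was kept in 6 and the Ptges3 call in 5. The Akr1b7 call ended without db/db PIO replicate 6, and its difference ran from -0.72 to -0.44 over the fits that left out a library. Pla2g12a in both tissues and Abcc4 could not be tested without any 1 of the 3 libraries of the smaller group.

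By a fixed rule, the genes with the most similar pattern were sought in the tissue where the median of a member over all its libraries was highest, over at least 18 libraries with both values. It could be applied to 4 members. In SCN, Ptges was most like Ndn (r = 0.84), Hic1 (0.83) and C630043F03Rik (0.83), and Hpgd was most like Btg2 (0.91), A130040M12Rik (0.91) and C5ar1 (0.89). In glomeruli, Ptgs2 was most like 1190002H23Rik (0.85), Trib1 (0.80) and Rragd (0.80), and Ptger4 was most like Gpr81 (0.83), Des (0.80) and Atp1b2 (0.80). The correlations describe libraries that share a tissue and its 4 groups, and 666 to 2155 genes were compared for each member.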

How the data were processed

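RNA-Seq libraries were made by the authors with an unstranded mRNA kit and read as paired ends. The deposited FPKM values were made by the authors by aligning reads to the mouse genome (mm9) with TopHat and summarising genes with Cufflinks. The sources used here give no versions, and library read totals were not part of the analysis. The fold tests of the authors cannot be repeated from FPKM. Differences were tested in limma 3.58.1 (R 4.3.3) on log2(FPKM + 1) with 0 as missing, the 4 groups of a tissue in 1 fit, a variance trend, genes of at least 1 FPKM in at least 5 libraries, at least 3 values in both groups, and a Benjamini-Hochberg FDR of 0.05 over all genes tested. The log2(FPKM + 1) scale understates the change of low genes. The fit was tested on simulated data with 200 changed genes, drawn only from genes at higher levels. That check does not cover low genes such as Ptgs2. The members and all gene lists were chosen with earlier results of these data known. Genes named were the members, the other pathway genes called for diabetes or for pioglitazone in db/db, and up to 4 markers a list with values in the most libraries. Other markers, and pathway genes called only between db/+ PIO and db/db PIO, were named after their values were seen. Tissues and groups came from the labels. The p-values measure only the spread between the libraries of a group, part of which may be technical. The authors describe 6 mice per group, and the labels do not tie libraries to mice. Figures used matplotlib 3.10.9. Some gene results are not reported here.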

Additional observations from a re-analysis of the deposited data

Results flagged for a closer look

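In 12 of the 122 gene and group combinations with 4 to 10 values, 1 library lay far from the others of its group by Dixon's criterion, and chance alone gives about 1 in 20. Among the cyclooxygenases, Ptgs1 was 5.02 FPKM in SCN db/db replicate 4 (others 2.91 to 3.62), 4.37 in cortex db/db replicate 6 (others 9.22 to 9.55) and 7.75 in cortex db/db PIO replicate 3 (others 8.75 to 8.88). Ptgs2 was 1.33 in glomeruli db/+ replicate 4 (others 0.52 to 0.67). Ptges was 2.25 in DRG db/+ replicate 6 (others 2.65 to 2.88). Hpgd was 1.22 in DRG db/db replicate 1 (others 2.04 to 2.3), 2.39 in glomeruli db/+ replicate 2 (others 0.38 to 0.91) and 7.12 in glomeruli db/db replicate 1 (others 1.81 to 3.46). Ptger1 was 66.04 in glomeruli db/db PIO replicate 3 (others 47.1 to 52.01). Among the other pathway genes, Akr1b3 was 37.97 in cortex db/db PIO replicate 3 (others 19.56 to 24.05), Ptgfr was 1.72 in SCN db/db PIO replicate 6 (others 0.7 to 0.98) and Cbr3 was 2.53 in cortex db/+ replicate 1 (others 0.71 to 1.36).

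Some genes lay on opposite sides of the untreated or non-diabetic mean in different tissues, in every library with a value, and the difference between tissues was not tested. Ptges averaged 3.58 FPKM in DRG db/db (2.66 in db/+) and 11.4 in glomeruli db/db (2.03 in db/+), against 5.88 in SCN db/db (8.33 in db/+). Hpgd averaged 23.8 in SCN db/db PIO (15.5 in db/db) and 0.502 in glomeruli db/db PIO (3.2 in db/db). Pla2g12a averaged 21.3 in SCN db/db PIO (14.5 in db/db) and 8.69 in DRG db/db PIO (9.96 in db/db). Set against db/+ PIO, Pla2g12a averaged 12.2 in glomeruli db/db PIO (10.3) and 8.69 in DRG db/db PIO (11.7).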

How the results depend on the processing

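The calls of Ptges for diabetes and of Ptges and Hpgd for pioglitazone in db/db glomeruli held in all 12 alternatives and all 24 fits that left out a library, and that of Hpgd for diabetes in 11 and 24. Of 3434 recomputed log2 differences of members and named genes, 3351 stayed within 1 residual SD of the reported value or kept their call. Many of these could not move, because several alternatives changed only the test or the genes tested. Leaving out a library of a group not compared also left a difference as it was. A member that lost its call could still be counted among the 3351, so this count does not measure how steady the results were. Alternatives that left too few values gave no result. The cause of the changes below was not tested.

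With each 0 entered as a value, differences turned for Pla2g12a (pioglitazone in db/db SCN, -0.39, and diabetes in glomeruli, -0.35), Ptges (diabetes in DRG, -0.12), Ptger4 (pioglitazone in db/db glomeruli, -1.37) and Ptgds (db/+ PIO with db/db PIO cortex, 0.11). The members called became 0 in DRG for diabetes and 0 in SCN and cortex for db/+ PIO with db/db PIO, 1 in glomeruli for diabetes and 2 for pioglitazone in db/db. All 7 comparisons with other pathway genes called went to 0.

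For the members, diabetes in SCN gave 1 call with median-of-ratios rescaling, array weights or the replicate block and 4 with quantile normalization. Pioglitazone in db/db SCN gave 2 with array weights, 1 with the replicate block and 1 with at least 5 values per group. Diabetes in DRG gave 0 with quantile normalization, the replicate block, at least 5 values or a fold of at least 1.5. Diabetes in cortex gave 1 with array weights. For db/+ PIO with db/db PIO, at least 5 values left 1 in SCN and 0 in cortex, and quantile normalization 1 in cortex. A fold of at least 1.5 left 2 for pioglitazone in db/db glomeruli. Leaving out 1 library gave 0 to 2 for diabetes and for pioglitazone in db/db in SCN, 0 to 1 for diabetes in DRG and in cortex, and 0 to 2 for db/+ PIO with db/db PIO in cortex.

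For the other pathway genes, pioglitazone in db/db SCN ranged from 0 (at least 5 values, or a fold of at least 1.5) through 2 (no filter, median-of-ratios) to 4 (array weights). Diabetes gave 5 in SCN with quantile normalization and 1 with at least 5 values, 1 in DRG with no filter or array weights, 5 in glomeruli with array weights and 1 with quantile normalization or the fold, and 1 in cortex with median-of-ratios, array weights or at least 2 values. Pioglitazone in db/db gave 1 in glomeruli with no filter and 1 in cortex with array weights. For db/+ PIO with db/db PIO, SCN gave 8 with at least 2 values, 5 with no filter or array weights and 1 with the fold. In that comparison DRG gave 1 with no filter, 2 groups in the fit, the replicate block or at least 5 values and 0 with quantile normalization or the fold. Glomeruli gave 1 with no filter, 2 groups, array weights, at least 5 values or the fold and 0 with quantile normalization, and cortex 3 with no filter, 2 with 2 groups, array weights or at least 2 values and 0 with quantile normalization or the replicate block. Leaving out 1 library gave 0 to 3 for pioglitazone in db/db SCN, 0 to 1 for it in cortex and for diabetes in DRG and cortex, and for db/+ PIO with db/db PIO 1 to 2 in DRG and glomeruli and 0 to 2 in cortex.

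Same-numbered libraries of different groups did not deviate together in every pair (correlations from -0.47 to 0.56), and in none of the 16 comparisons did every library correlate best with its own number, so the numbers were not taken as pairs. This rule is strict. The mean correlation was 0.21 for same numbers and -0.05 for other numbers for diabetes in glomeruli, and -0.09 and 0.01 for diabetes in DRG. Whether same-numbered libraries shared a batch was not tested. A pseudocount of 0.1 and a fit without the variance trend moved no count of calls beyond 1.5 times. FPKM without read totals leave the counting error of low genes such as Ptgs2 unknown.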
